A study of Drosophila melanogaster with 56 samples.

Results

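The 150 genes described here have mRNA levels that were highest between 8 and 12 h after egg-laying and lower both before and after. They were picked from the 17558 gene IDs counted in Drosophila embryos by a rule on the measured levels. Counts were converted to CPM, the counts on a gene per 1000000 counts on all genes of the library, and averaged over the 4 replicates of each of the 14 time points. A gene was eligible if its highest mean fell at 8, 10 or 12 h and reached at least 10 CPM, which 896 genes did. For each, the highest mean was divided by the highest mean among 0, 1, 2, 3, 4, 16, 18 and 20 h, with 0.5 CPM added to both, and the 150 genes with the largest ratio were taken. The levels that enter this ratio therefore describe the members, and those outside 8 to 12 h were not tested. For members highest at 8 or 12 h, that highest level also enters the comparison of 12 with 8 h given below. The 5 and 6 h means and the 14 h mean enter only in that they had to be below the highest one, and the rule makes no difference between 8, 10 and 12 h.

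In Drosophila, the extended germ band of the embryo retracts in this period and the epidermis then closes over the back. Neuroblasts and sense organ precursors divide and give rise to neurons and glia, with Notch signalling separating the fates of sister cells. In the mesoderm, fusion-competent myoblasts join founder cells to form multinucleate muscle fibres, and organs such as the trachea, the gut and the salivary glands take shape. The embryos came from wild-type Oregon R flies kept at 25 °C and were laid in windows of 30 min, then frozen at once (0 h) or aged for 1 to 6 h in hourly steps or 8 to 20 h in steps of 2 h. Each library was made from polyadenylated RNA of a pellet of many whole, dechorionated embryos, 4 biological replicates per time point and 56 libraries in all, and no embryo carried a mutation or treatment. In such bulk samples, fewer cells of a type and less RNA per cell cannot be told apart.

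Between 13422473 and 22536043 counts fell on genes per library, so that 3 counts correspond to 0.133 to 0.224 CPM, a limit that covers counting error only. The time labels were checked with stage markers. The maternal mRNAs measured, of *bcd* and *osk*, summed to 881 to 1309 CPM at 0 h and to at most 33.3 CPM from 3 h on. The blastoderm genes *ftz*, *eve* and *sna* were highest at 3 and 4 h. The late muscle genes *Mhc*, *Mlp60A* and *Tm2* reached 4322 to 7585 CPM at 20 h, but they also summed to 418, 398, 473 and 23.2 CPM in the 4 libraries of 0 h. At 16 h the same sum was 3394, 1875, 2014 and 3476 CPM, and at 18 h it was 713, 1157, 1667 and 5157 CPM. Replicate 4 of 18 h thus lay above every library of 16 h and within the range of 20 h. The other libraries of 18 h lay below every library of 16 h, so this sum did not place them between 16 and 20 h. Eggshell mRNAs of the adult ovary, near 0 elsewhere, reached 56.8 CPM in replicate 4 of 10 h and 15.9 CPM in replicate 2 of 20 h.

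The members were low at first and rose from 3 h on. The median member stood at 1.45% of its own highest mean at 0 h, 0.802% at 1 h and 1.45% at 2 h. It reached 17.4% at 3 h, 33.8% at 5 h and 55.7% at 6 h, then 92.3% at 8 h and 92.4% at 10 h. From 78.7% at 12 h the median fell to 38.8% at 14 h, and it was 17.1% at 20 h. The highest mean fell at 8 h for 67 members, at 10 h for 45 and at 12 h for 38. By linear interpolation between the means, the members passed 50% of their highest mean at a median of 5.73 h on the way up and 13.5 h on the way down, and stayed above it for a median of 7.39 h. The shortest time above 50% was that of *jeb*, with 2.74 h, and the longest that of FBgn0262735, with 13.9 h.

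**Figure D1:**
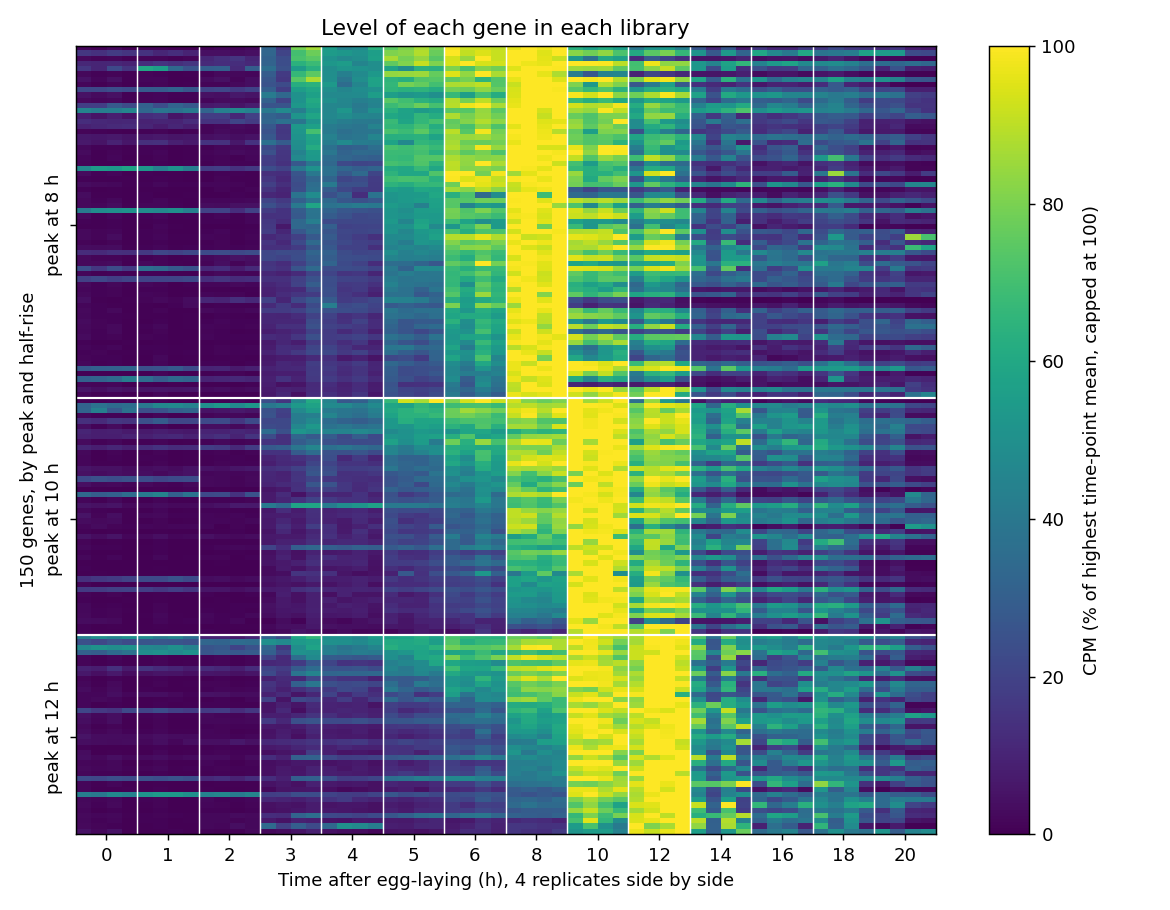
Level of each of the 150 genes (rows) in each of the 56 libraries (columns, by time in h), in percent of the highest time-point mean of that gene and capped at 100. Genes are sorted by the time of their highest mean (67 at 8 h, 45 at 10 h, 38 at 12 h). A few rows are bright before 3 h, and at 14 h replicates 2 and 4 are darker than replicates 1 and 3 in many rows.

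Together the members held a share of all counts that rose and fell over the course. The share was 0.235, 0.250, 0.196 and 0.246% in the 4 libraries of 2 h. It was 2.73, 2.84, 2.73 and 2.86% at 8 h and 3.18, 3.06, 3.15 and 2.94% at 10 h, where the libraries of both time points lay within narrow ranges. At 12 h, replicate 1 was low, with 2.44, 2.99, 3.01 and 2.76%. At 14 h the libraries fell into a higher and a lower pair, with 1.75, 1.04, 1.81 and 1.32%, and 82 members had both replicates 2 and 4 below both replicates 1 and 3. The median ratio between the highest and the lowest replicate of a member was 1.14 at 8 h and 1.89 at 14 h. The libraries of 3 h differed as well, with 0.628, 0.523, 0.997 and 1.197%.

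The decline was not smooth. The mean of 18 h was above that of 16 h for 118 of the 150 members, and the summed share was 1.04, 1.13, 1.13 and 1.10% at 16 h and 1.41, 1.35, 1.27 and 0.913% at 18 h. Replicate 4 of 18 h was the lowest of its group for 122 members, and it is the library with the high late muscle level. Without it, 133 members had a higher mean at 18 than at 16 h. These counts were not made for all genes, so they are not particular to the members. Replicates 1, 2 and 3 of 18 h had muscle sums of 713, 1157 and 1667 CPM, below every library of 16 h. In both groups, the library with the most late muscle mRNA was among the lowest in the members. At 16 h the muscle sums were 3394, 1875, 2014 and 3476 CPM and the median members stood at 24.4, 26.4, 29.3 and 24.8% of their highest mean, and at 18 h at 39.8, 38.3, 35.8 and 20.9%. At 14 h it was otherwise for the sum, with 1130, 703, 1063 and 965 CPM. Replicate 2, the lowest in this sum, also had the lowest share of counts on the members (1.04%). The single muscle genes differed. *Mhc* stood at 772, 346, 725 and 378 CPM, *Mlp60A* at 125, 143, 117 and 215 CPM and *Tm2* at 233, 214, 222 and 372 CPM. *Mlp60A* was thus higher in replicates 2 and 4, the lower pair in the members, than in replicates 1 and 3. The part of the stage of single pellets in these differences was not tested.

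**Figure D2:**
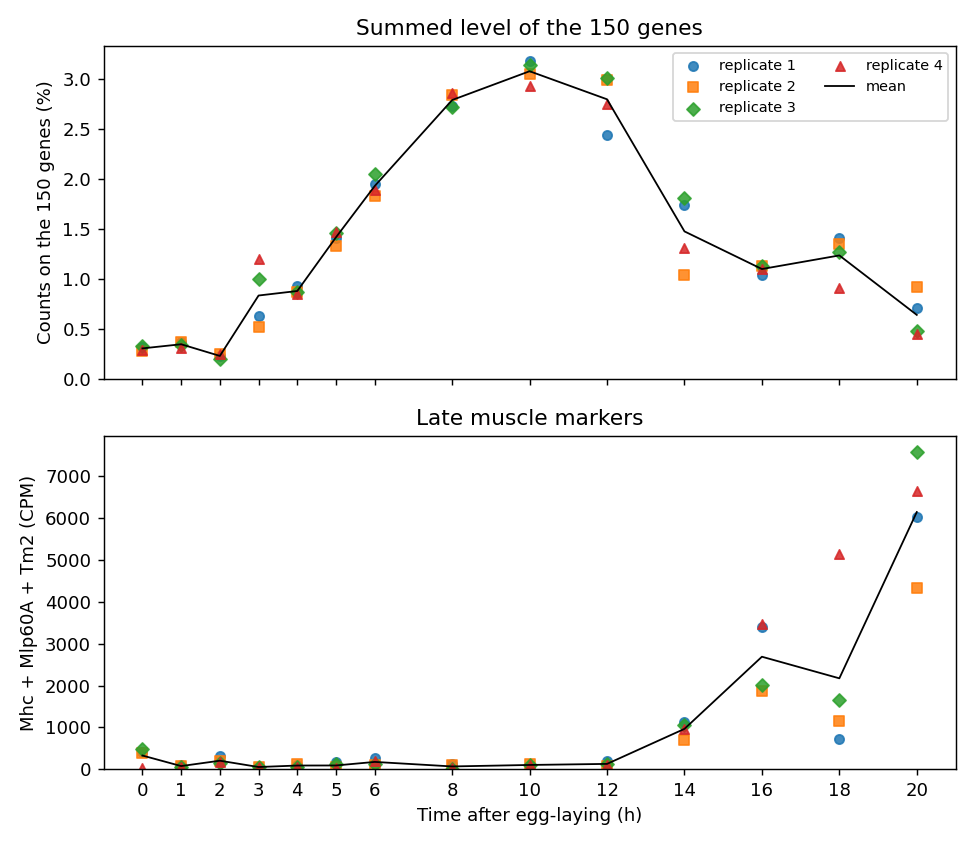
Share of all counts on the 150 genes (upper panel, in percent) and summed CPM of *Mhc*, *Mlp60A* and *Tm2* (lower panel) against time in h, with a point per library and a line through the means of 4. The share is highest at 10 h, and replicate 4 of 18 h has the lowest share of its group and 5157 CPM of muscle markers.

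How the members lean within their window was asked with the difference between 12 and 8 h, and which of their flanks was higher with that between 14 and 6 h. Both were tested on the counts with edgeR, in a fit of all 56 libraries and 11065 genes that included all 150 members. A call required a Benjamini-Hochberg adjusted p below 0.05 together with a change of 1 or more on the log2 scale. At 12 against 8 h, 17 members (11.3%) were called higher, where 15.5% of all genes tested were, and 26 (17.3%) were called lower, against 5.45% of all genes. The median log2 fold change was -0.24 in the members and 0.01 in all genes. At 14 against 6 h, 17 members (11.3%) were called higher and 62 (41.3%) lower, against 27.5% and 19% of all genes tested. The median was -0.80 in the members and 0.12 in all genes. The called members were 28.7% at 12 against 8 h, beside 20.9% of all genes, and 52.7% at 14 against 6 h, beside 46.6%.

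The scaling bears on these splits. With library size alone, as in the rule, the median of all genes moved to 0.12 at 12 against 8 h, and 22 members were called higher and 22 lower. At 14 against 6 h it moved to 0.31, with 18 members higher and 51 lower. No member called in either comparison turned its direction in any of the fits tried. The time of the highest mean was read from the same counts and fixes much of the direction. All 26 members called lower at 12 against 8 h had their highest mean at 8 h, and they were also called lower at 14 against 6 h. Of the 17 called higher at 12 against 8 h, 15 had it at 12 h and 2 at 10 h.

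**Figure D3:**
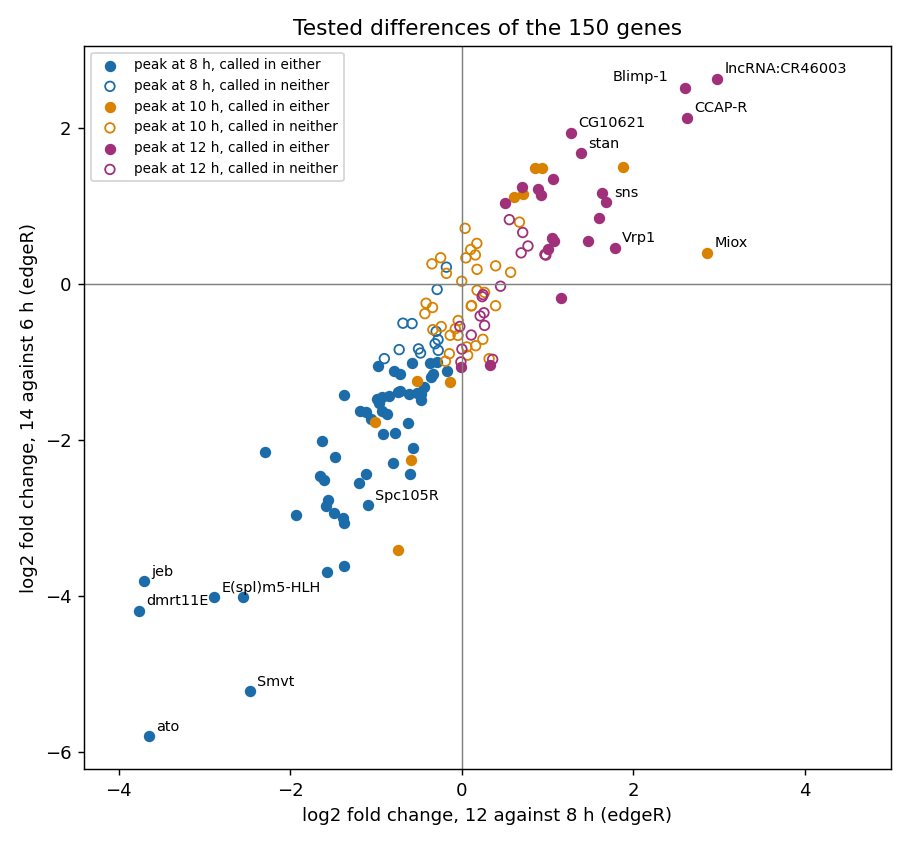
Log2 fold change of each of the 150 genes at 12 against 8 h (x axis) and 14 against 6 h (y axis), from edgeR with TMM scaling. Colours mark the time of the highest mean, filled points were called in at least 1 of the comparisons. Values run from -3.76 to 2.98 on the x axis and from -5.80 to 2.63 on the y axis, and the lower left holds *ato*, *Smvt*, *dmrt11E* and *jeb*.

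Some members with their highest mean at 8 h were lost within 2 h. The sharpest was *jeb* (FBgn0086677, 2R:12085194-12119340 in BDGP6), which encodes the secreted ligand of the receptor Alk that specifies founder cells of the visceral muscle. It stood at 22.8, 14.8, 27.0 and 20.6 CPM at 6 h, 49.9, 57.3, 52.0 and 61.4 CPM at 8 h and 5.89, 4.61, 6.39 and 4.97 CPM at 10 h. Every library of 8 h was thus far above every library of 6 and 10 h, and the mean fell 9.32-fold between 8 and 10 h. The level at 12 h was lower than at 8 h (log2 fold change -3.70, SE 0.38, adjusted p = 1.23e-10), and the level at 14 h lower than at 6 h (log2 fold change -3.81, SE 0.39, adjusted p = 1.18e-11). In no other member was the ratio between the means of 8 and 10 h as large.

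The proneural gene *ato* (FBgn0010433, 3R:8278052-8279274), needed for the precursors of chordotonal sense organs, went the same way. Its levels were 33.4, 35.4, 32.9 and 36.1 CPM at 8 h, 8.32, 5.88, 7.99 and 8.45 CPM at 10 h and 0.501, 0.276, 0.408 and 0.530 CPM at 14 h. The 4 values of each of these time points did not overlap with those of the others. At 14 against 6 h it had the lowest log2 fold change of all members (log2 fold change -5.80, SE 0.54, adjusted p = 7.74e-13), and at 12 against 8 h it was called lower as well (log2 fold change -3.65, SE 0.47, adjusted p = 2.15e-08). Another transcription factor gene, *dmrt11E*, which encodes a protein with a DM domain, was measured at 9.26, 10.9, 11.5 and 11.9 CPM at 8 h and 0.595, 1.28, 1.03 and 0.522 CPM at 12 h. Its log2 fold change of -3.76 (SE 0.38, adjusted p = 5.65e-11) was the lowest at 12 against 8 h.

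*Smvt* (FBgn0039873, 3R:31759404-31761579), named after the sodium-dependent multivitamin transporter, rose earlier and fell in 2 steps. It stood at 108, 103, 113 and 104 CPM at 6 h and 114, 121, 123 and 145 CPM at 8 h, then at 35.6, 25.1, 33.6 and 33.1 CPM at 10 h. From 12 to 14 h the mean fell again, 6.62-fold, to 4.01, 3.37, 3.32 and 2.32 CPM. The difference between 14 and 6 h was among the largest of the members (log2 fold change -5.22, SE 0.47, adjusted p = 1.93e-13).

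**Figure D4:**
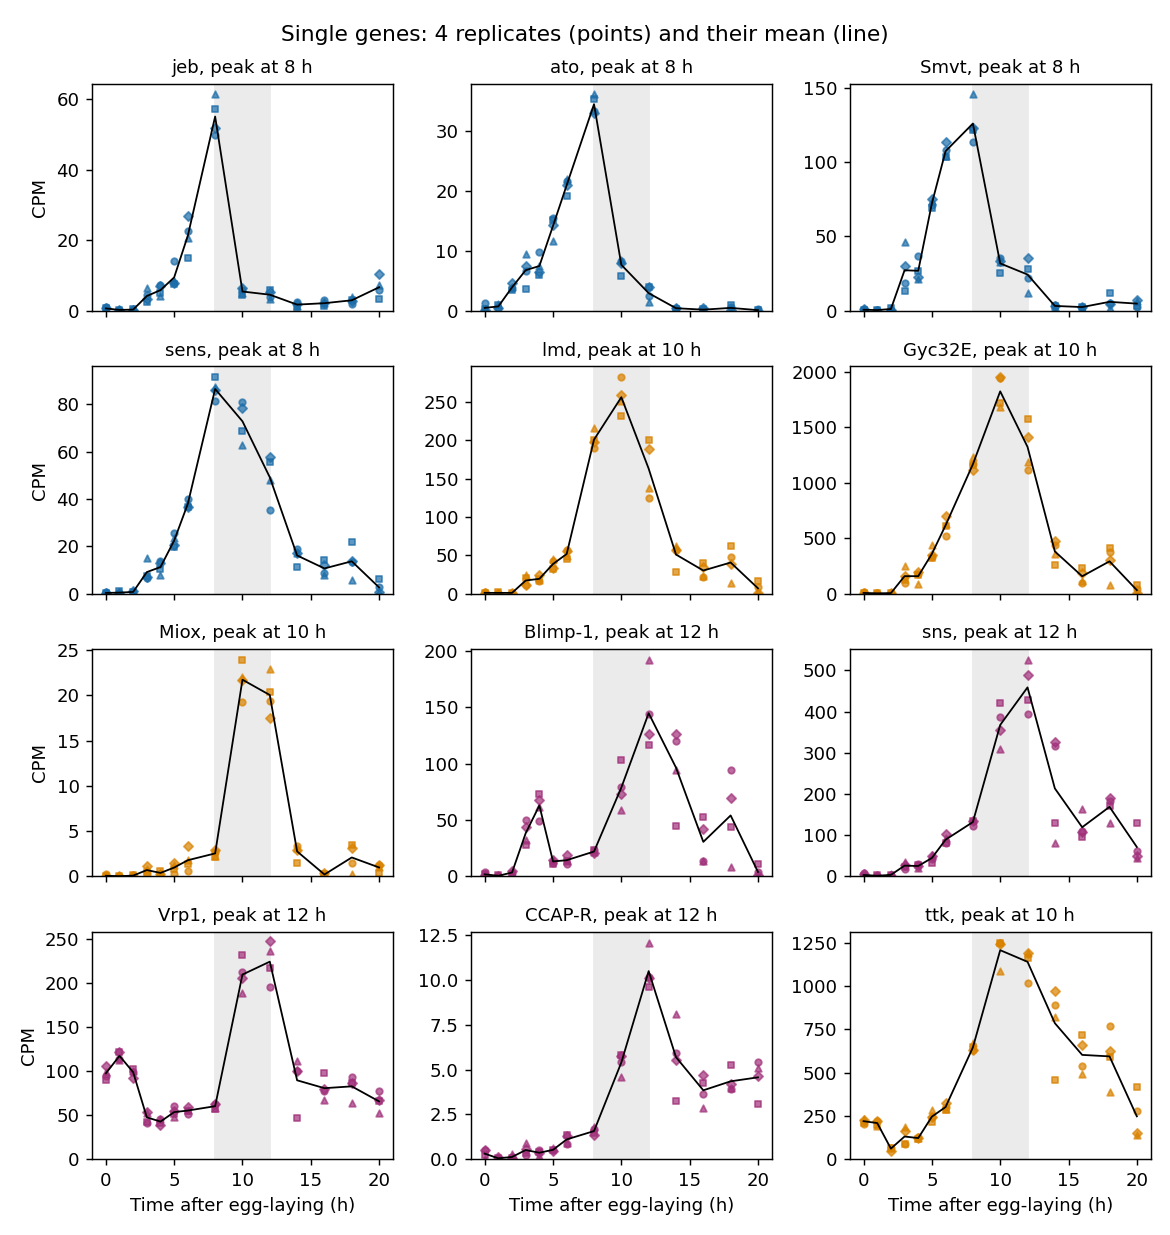
CPM of 12 of the genes against time in h, with a point per library, a line through the means of 4 and the window of 8 to 12 h in grey. *jeb*, *ato* and *Smvt* drop between 8 and 10 h, while *Miox*, *Vrp1* and *sns* rise between 8 and 10 h. *Blimp-1* has an earlier maximum at 4 h and *Vrp1* one at 1 h.

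Among the 10 members with the largest ratio, which the rule itself ranks, all but *asRNA:CR45268* encode proteins. This antisense RNA had a ratio of 9.53 and stood at 25.6, 39.5, 37.7 and 14.4 CPM at 10 h, so replicate 4 was lower than the others. It is annotated on the other strand of *CG43326* and *CG43325*. The sources used here do not give the strand setting of the counting, and without it the reads of overlapping genes cannot be told apart. *Miox* followed with 8.57, *CG14857* with 8.26 and *jeb* with 7.75. *cato*, a proneural gene related to *ato*, had a ratio of 6.53, and *Gyc32E*, which encodes a receptor guanylate cyclase, one of 6.26. *lmd*, which encodes a zinc finger factor of fusion-competent myoblasts, had 6.25. *sens* with 6.15, *Irk3* with 5.64 and *cn* with 5.63 completed the list.

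Besides *jeb*, other genes of this list were called between 14 and 6 h. *CG14857* was called lower at 14 than at 6 h (log2 fold change -2.96, SE 0.38, adjusted p = 3.67e-09), and so were *Irk3* (-3.62, SE 0.38, adjusted p = 1.72e-11), *cn* (-2.44, SE 0.36, adjusted p = 7.07e-08) and *sens* (-1.45, SE 0.40, adjusted p = 0.00125). *lmd*, *Gyc32E*, *cato* and *Miox* were not called in this comparison, with log2 fold changes of -0.25 (SE 0.45), -0.91 (SE 0.55), -0.71 (SE 0.38) and 0.40 (SE 0.49). *asRNA:CR45268* was not called either (-0.96, SE 0.45), but was without replicate 4, with -1.32. *CG14857* also overlaps *btsz* on the other strand.

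The largest group of neighbours among the members was the Enhancer of split complex on chromosome 3R. Its genes respond to the Notch receptor and encode basic helix-loop-helix repressors (HLH) and small proteins of the Bearded family (BFM). Of the 11 genes with an E(spl) symbol, 9 were members, between positions 25997621 and 26041008, and 7 of these had their highest mean at 8 h. *E(spl)mgamma-HLH* was measured at 346, 329, 325 and 299.6 CPM at 8 h and 88.4, 156, 115 and 113 CPM at 12 h, without overlap. *E(spl)m4-BFM* stood at 294, 281, 259 and 248 CPM at 8 h, 147, 101, 163 and 153 CPM at 10 h and 34.05, 75.3, 54.5 and 36.6 CPM at 12 h. *E(spl)m5-HLH* declined alongside, with 173, 165, 151 and 137 CPM at 8 h and 15.7, 32.6, 25.6 and 18.0 CPM at 12 h.

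In the test, 6 of the 9 were called lower at 12 against 8 h, where 5.45% of all genes were. At 14 against 6 h it was 7 of the 9, where 19% of all genes were. Since 7 of the 9 were highest at 8 h, the direction is in part fixed by that time. Of all 67 members highest at 8 h, 26 were called lower at 12 against 8 h and 55 at 14 against 6 h, and none higher. Of the 9, *E(spl)m5-HLH* had the largest fall in both (-2.88, SE 0.38, adjusted p = 4.69e-08, and -4.02, SE 0.40, adjusted p = 6.09e-12). *E(spl)m4-BFM* was close to it (-2.55, SE 0.35, adjusted p = 9.46e-08, and -4.01, SE 0.37, adjusted p = 6.94e-13). *E(spl)m3-HLH* went the other way. It rose late, from 69.5, 68.6, 65.2 and 61.8 CPM at 8 h to 156, 151, 150.2 and 145 CPM at 10 h, and was called higher at 14 than at 6 h (log2 fold change 1.12, SE 0.32, adjusted p = 0.00186). This call was lost without replicate 4 of 14 h, with a log2 fold change of 0.995. *E(spl)m2-BFM* was called in neither comparison (-0.43, SE 0.29, and -0.38, SE 0.29). These genes are short and similar in sequence, so reads shared between them could have been left out of the counts.

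Of the genes with an E(spl) symbol, 2 were outside the list. *E(spl)mbeta-HLH* was highest at 10 h, with a mean of 92.5 CPM, but still stood at 71.6 CPM at 16 h, and its ratio was 1.29. *E(spl)m6-BFM* was highest at 14 h, with 51.0 CPM, and was at 4.48 CPM at 8 h. Counted with the receptor gene *N* and with *spdo*, which encodes a membrane protein that promotes Notch signalling in asymmetric division, 11 members belong to the Notch pathway. At 14 against 6 h, 9 of these 11 were called lower and 1 higher, beside 19% and 27.5% of all genes tested. Of the 11, 8 had their highest mean at 8 h, and 55 of the 67 members highest at that time were called lower. *N* itself was lower at 14 than at 6 h (log2 fold change -1.32, SE 0.32, adjusted p = 0.000269) and was not called between 12 and 8 h (log2 fold change -0.44, SE 0.31, adjusted p = 0.271). This grouping by role, like those that follow, was made after the members were known.

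**Figure D5:**
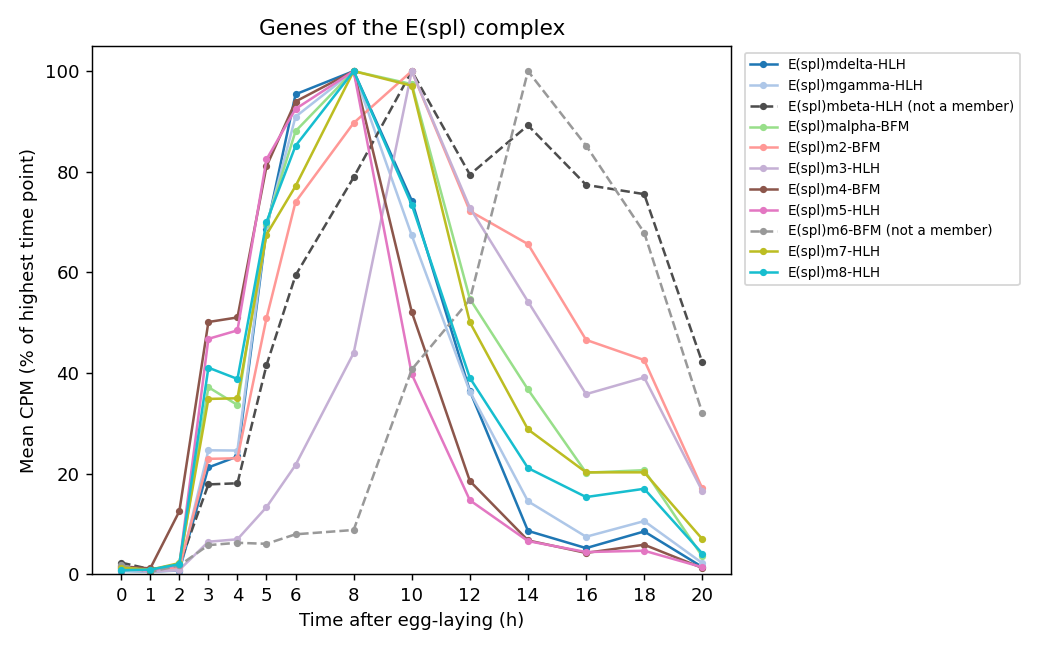
Mean CPM of the 11 genes with an E(spl) symbol against time in h, each in percent of its highest time point. Full lines are the 9 members and broken lines the other genes. *E(spl)m5-HLH* and *E(spl)m4-BFM* fall first, *E(spl)m3-HLH* rises later than the other members, and *E(spl)m6-BFM* is highest at 14 h.

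Of the 12 members with a role in the nervous system, 7 were highest at 8 h, 3 at 10 h and 2 at 12 h. Those highest at 8 h include genes of neuroblasts and sense organ precursors. *sens*, which encodes a zinc finger protein of sense organ precursors, stood at 81.2, 91.3, 86.1 and 87.1 CPM at 8 h and 18.9, 11.2, 17.1 and 17.2 CPM at 14 h. *ase*, a proneural gene of neuroblasts, was at 103, 109, 94.0 and 110.4 CPM and 33.7, 21.5, 35.6 and 38.0 CPM at the same times, and *wor*, which encodes a Snail family protein of neuroblasts, at 139, 159, 137 and 162 CPM and 53.9, 32.4, 45.3 and 53.1 CPM. In all of them the libraries of 8 h lay above those of 14 h. Against 6 h, the 14 h level was lower for *ase* (log2 fold change -1.15, SE 0.27, adjusted p = 0.000261) and for *wor* (log2 fold change -1.38, SE 0.29, adjusted p = 5.15e-05). With library size alone *ase* fell just under the fold limit, with -0.94. *pros*, whose homeodomain protein acts in the daughter cells of neuroblasts, was not called (log2 fold change -0.61, SE 0.25, adjusted p = 0.0310). *pon*, whose product places Numb in dividing neuroblasts, was called lower (log2 fold change -1.93, SE 0.24, adjusted p = 1.61e-09).

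Both members of the group with their highest mean at 12 h, *nerfin-1* and *elav*, act in neurons. *nerfin-1*, which encodes a zinc finger protein of young neurons, was measured at 199, 209, 189 and 216 CPM at 8 h and 318, 335, 348 and 428 CPM at 12 h. *elav*, the pan-neuronal RNA-binding protein gene, stood at 349.6, 407, 376 and 386 CPM and 630.0, 608, 710.4 and 731 CPM. Neither was called at 12 against 8 h (0.70, SE 0.38, adjusted p = 0.133, and 0.71, SE 0.36, adjusted p = 0.106). At 14 against 6 h, *nerfin-1* (log2 fold change 1.25, SE 0.38, adjusted p = 0.00381) and *tap*, a proneural-type gene (log2 fold change 1.48, SE 0.33, adjusted p = 0.000127), were called higher, while *unc-5*, which encodes a netrin receptor, was called lower (log2 fold change -1.52, SE 0.34, adjusted p = 0.000111). The wider list of 16 neuroblast and temporal factor genes holds *pros*, *ase* and *wor*. At 12 against 8 h, 2 of its genes were called higher and 2 lower, with a median log2 fold change of -0.51. At 14 against 6 h, 3 were higher and 8 lower, with a median of -0.88. Of all genes tested, 15.5% were higher and 5.45% lower in the former comparison, and 27.5% and 19% in the latter. None of the 18 axon guidance genes measured was a member, although 10 of them had their highest mean at 8 to 12 h; *unc-5* is a member with a role in guidance that the list does not hold.

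Muscle genes among the members were mostly late. Among 9 of them, 2 had their highest mean at 8 h, 3 at 10 h and 4 at 12 h. At 12 against 8 h, 4 were called higher, where 15.5% of all genes tested were, and *jeb* alone was called lower. Of all 38 members highest at 12 h, 15 were called higher in this comparison. *sns* (FBgn0024189, 2R:8798489-8856091), which encodes the immunoglobulin superfamily receptor of fusion-competent myoblasts, went from 123, 133, 135 and 137 CPM at 8 h to 395, 427, 488 and 525 CPM at 12 h (log2 fold change 1.69, SE 0.42, adjusted p = 0.000980). The values of both times did not overlap. At 14 h its libraries split, with 316, 131, 326 and 81.9 CPM, and the call at 14 against 6 h (log2 fold change 1.05, SE 0.41, adjusted p = 0.0228) was lost without replicate 1 (0.74, adjusted p = 0.217) or without replicate 3 (0.86, adjusted p = 0.127). *rst*, which encodes a related receptor on founder cells, had 102, 108, 99.4 and 102 CPM at 8 h and 208, 196, 211 and 273 CPM at 12 h and lay at the fold limit (log2 fold change 1.00, SE 0.26, adjusted p = 0.00148). It fell just under the limit without replicate 1, without replicate 4 and without the 12 h library of replicate 1, with log2 fold changes of 0.997, 0.89 and 0.95.

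*Vrp1* (FBgn0243516, 2R:22106107-22122562), the gene of a WASP-interacting protein that acts on actin in fusion, had a pattern with 2 maxima. It stood at 95.2, 89.6, 106 and 99.5 CPM at 0 h, fell to 45.5, 41.2, 38.7 and 45.8 CPM at 4 h and was at 62.7, 56.8, 63.4 and 58.6 CPM at 8 h. At 10 h it was measured at 214, 232, 206 and 189 CPM, so the rise took place within 2 h. It was called higher at 12 than at 8 h (log2 fold change 1.79, SE 0.13, adjusted p = 5.17e-15). *Mef2*, which encodes the main transcription factor of muscle differentiation, stood at 173, 173, 184 and 176 CPM at 8 h and 426, 424, 408 and 363 CPM at 10 h, and was called higher at 12 than at 8 h (log2 fold change 1.15, SE 0.18, adjusted p = 1.42e-06). The span of *Vrp1* overlaps *CG30280*, *CG30281* and *mei-S332*. *Mef2* was not called at 14 against 6 h (log2 fold change -0.18, SE 0.18, adjusted p = 0.383), and neither was *Vrp1* (log2 fold change 0.47, SE 0.12, adjusted p = 0.00104).

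*lmd* (FBgn0039039, 3R:23021222-23026713), which is needed for *sns* expression in fusion-competent myoblasts, was earlier. It was measured at 57.4, 45.7, 55.0 and 48.9 CPM at 6 h, 190.0, 201, 198 and 216 CPM at 8 h and 282, 232, 259.6 and 251 CPM at 10 h. At 12 h, replicates 1 and 4 were lower than the others (125, 201, 188 and 138 CPM), and the difference from 8 h was not called (log2 fold change -0.41, SE 0.45, adjusted p = 0.489). *sing*, which encodes a membrane protein needed for fusion, stood at 63.0, 56.1, 57.5 and 57.9 CPM at 10 h and was not called either (log2 fold change 0.57, SE 0.40, adjusted p = 0.260). It overlaps *Axs* on the other strand. *Him*, whose product inhibits Mef2, and *Poxm*, a Pax gene of muscle precursors, were not called in either comparison. Of the 16 myoblast fusion genes matched by ID, of 18 listed, 5 were members and 10 had their highest mean at 8 to 12 h. At 12 against 8 h, 5 of the 16 were called higher and none lower, with a median log2 fold change of 0.18. At 14 against 6 h, 4 were higher and 1 lower, with a median of 0.04. The shares of all genes tested were 15.5% higher and 5.45% lower in the former comparison, and 27.5% and 19% in the latter.

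Several other members rose sharply between 8 and 10 h. *Miox* (FBgn0036262, 3L:12184984-12187860), the gene of inositol oxygenase, stood at 2.75, 2.16, 2.97 and 2.29 CPM at 8 h, 19.3, 23.9, 21.7 and 22.0 CPM at 10 h, 19.3, 20.4, 17.5 and 22.9 CPM at 12 h and 3.40, 1.49, 2.97 and 3.18 CPM at 14 h. The libraries of 10 and 12 h were far above all others, with a rise of 7.31-fold and a fall of 6.30-fold between the means. The level at 12 h was higher than at 8 h (log2 fold change 2.86, SE 0.50, adjusted p = 7.74e-06). The non-coding RNA *lncRNA:CR46003* was at 7.17, 8.11, 7.72 and 6.21 CPM at 8 h and 43.7, 59.3, 41.0 and 30.2 CPM at 10 h. It had the highest log2 fold change of the members in both comparisons (2.98, SE 0.38, adjusted p = 2.37e-08, and 2.63, SE 0.38, adjusted p = 5.74e-08). It overlaps *lncRNA:CR46004* on the other strand. *Kah*, a gene of the Snail family, went from 41.4, 40.2, 43.6 and 37.0 CPM at 8 h to 178, 179, 166 and 152 CPM at 10 h and was called higher in both comparisons (1.88, SE 0.43, adjusted p = 0.000342, and 1.504, SE 0.43, adjusted p = 0.00179).

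*Blimp-1* (FBgn0035625, 3L:5630983-5652094) encodes a zinc finger repressor that is induced by ecdysone. It had an early maximum, with 49.1, 72.8, 68.1 and 61.5 CPM at 4 h, and fell to 12.0, 11.3, 14.9 and 14.96 CPM at 5 h. It then rose from 23.1, 23.1, 20.7 and 21.3 CPM at 8 h to 144, 117, 126 and 192 CPM at 12 h, with no overlap (log2 fold change 2.61, SE 0.53, adjusted p = 8.83e-05). At 18 h the libraries ranged widely, with 94.4, 44.1, 69.6 and 7.99 CPM, and the lowest is replicate 4. *shd*, the gene of the cytochrome P450 that makes the active hormone from ecdysone, stood at 6.81, 7.33, 6.64 and 7.42 CPM at 8 h, 22.9, 22.9, 20.8 and 22.7 CPM at 10 h and 21.2, 24.4, 22.1 and 27.1 CPM at 12 h (log2 fold change 1.64, SE 0.46, adjusted p = 0.00308). Its difference between 14 and 6 h (log2 fold change 1.17, SE 0.46, adjusted p = 0.0233) was not called without replicate 1, 2 or 3 (adjusted p = 0.141, 0.0527 and 0.0815).

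These are the only members from the ecdysone lists. Among the 21 ecdysone response genes measured, 11 were called higher at 12 against 8 h and none lower (median log2 fold change 1.57), and 14 were higher and 1 lower at 14 against 6 h (median 2.07). Among 8 ecdysone synthesis genes tested, 1 was higher and 4 lower at 12 against 8 h (median -0.62). At 14 against 6 h, 2 were higher and 4 lower (median -1.90). All genes tested had 15.5% higher and 5.45% lower in the former comparison, and 27.5% and 19% in the latter. *CCAP-R* (FBgn0039396, 3R:25923499-25956270), the gene of the receptor for the neuropeptide CCAP, was low throughout. It rose from 1.67, 1.44, 1.36 and 1.81 CPM at 8 h to 10.2, 9.59, 10.1 and 12.1 CPM at 12 h (log2 fold change 2.63, SE 0.36, adjusted p = 1.03e-07), and 5.45, 3.11, 4.65 and 5.07 CPM remained at 20 h. It overlaps *lncRNA:CR34024* on the other strand.

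*stan*, which encodes a cadherin of planar cell polarity, rose from 122, 134, 121 and 121 CPM at 8 h to 331, 335, 373 and 366 CPM at 12 h (log2 fold change 1.39, SE 0.48, adjusted p = 0.0157). At 14 h it was spread over 322, 112, 376 and 71.2 CPM. The call between 12 and 8 h was lost without replicate 1 or 3 (adjusted p = 0.1001 and 0.0585), and the call between 14 and 6 h (log2 fold change 1.67, SE 0.48, adjusted p = 0.00208) without replicate 1 (adjusted p = 0.0501). Of the other members of the Fat, Hippo and planar polarity group, the genes of the cadherin Fat (*ft*), the kinase Four-jointed (*fj*) and the FERM domain protein Expanded (*ex*), none was called in either comparison. Their log2 fold changes at 14 against 6 h were -0.84 (SE 0.51), -0.89 (SE 0.30) and -0.16 (SE 0.23), and *fj* was called without replicate 1, with -1.05.

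Genes of metabolism and transport made up 20 members, of which 11 were highest at 8 h. At 14 against 6 h, 11 were called lower and 1 higher (*shd*, whose call was lost without replicate 1, 2 or 3). The median log2 fold change was -1.202. At 12 against 8 h, 5 were lower and 2 higher. The shares of all genes tested were 19% lower and 27.5% higher in the former comparison, and 5.45% and 15.5% in the latter. Of all 67 members highest at 8 h, 55 were called lower in the former and 26 in the latter. *Inos*, the gene of inositol-phosphate synthase, was present in the egg, at 55.1, 57.2, 61.6 and 75.3 CPM at 0 h, and declined to 17.8, 19.0, 20.6 and 18.7 CPM at 2 h. It came to 173, 163, 169.8 and 209 CPM at 8 h and fell to 10.4, 7.13, 9.15 and 14.0 CPM at 14 h, a fall of 7.04-fold from the mean of 12 h. The 14 h level was below that of 6 h (log2 fold change -3.06, SE 0.35, adjusted p = 2.65e-10). *cn*, the gene of kynurenine monooxygenase in the ommochrome pathway, was measured at 172, 175, 166 and 182 CPM at 8 h and 20.9, 19.3, 20.5 and 22.6 CPM at 14 h. At 12 against 8 h it was called lower (log2 fold change -1.12, SE 0.34, adjusted p = 0.00620), but not without replicate 4 (log2 fold change -0.96).

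*Bhmt*, named after a betaine-homocysteine methyltransferase, stood at 78.5, 73.4, 69.3 and 82.2 CPM at 8 h and 7.57, 7.69, 9.26 and 10.3 CPM at 14 h (log2 fold change -2.47, SE 0.29, adjusted p = 4.47e-10, against 6 h). Its neighbour on 2L, *CG10621*, differed. It was at 155, 160.3, 164 and 172 CPM at 8 h and 406, 436, 412 and 442 CPM at 12 h and was called higher in both comparisons (1.27, SE 0.40, adjusted p = 0.00772, and 1.94, SE 0.40, adjusted p = 4.28e-05). *Irk3*, which encodes an inwardly rectifying potassium channel, was at 49.7, 58.2, 56.3 and 58.2 CPM at 8 h and 3.68, 3.21, 3.50 and 3.51 CPM at 14 h. Of the members, 4 have Cyp symbols and encode cytochrome P450 enzymes, and the levels of *Cyp9f2* and *Cyp9f3* were close at 10 h, with 80.2 ± 15.9 and 79.9 ± 12.96 CPM (mean ± SD, n = 4). Of these only *Cyp6a8* was called, lower at 14 than at 6 h (log2 fold change -1.01, SE 0.43, adjusted p = 0.0357), and the call was lost in 9 of 12 alternatives, with -0.90 without replicate 4 and an adjusted p = 0.0870 and 0.0835 without replicate 1 or 3.

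Growth factor signalling was represented by 6 members, all highest at 8 h. *bnl*, the gene of the FGF that guides tracheal branches, stood at 44.4, 49.9, 46.6 and 43.6 CPM at 8 h and 27.0, 13.2, 29.6 and 17.4 CPM at 14 h, and was not called (log2 fold change -0.85, SE 0.34, adjusted p = 0.0262, against 6 h), except without replicate 3, where the log2 fold change was -1.06. The ETS factor genes *pnt* and *aop*, an activator and a repressor in the Ras pathway, were both called lower at 14 against 6 h, *pnt* with -1.37 (SE 0.17, adjusted p = 1.90e-09) and *aop* with -1.43 (SE 0.20, adjusted p = 2.03e-08). *Ret*, a receptor tyrosine kinase gene, was lower in both comparisons, with 60.8, 67.5, 61.0 and 74.5 CPM at 8 h and 13.4, 17.0, 15.8 and 11.8 CPM at 12 h (log2 fold change -2.29, SE 0.37, adjusted p = 1.81e-06). *Wnt2*, the gene of a Wnt ligand, was also lower at 12 than at 8 h (log2 fold change -1.37, SE 0.27, adjusted p = 6.20e-05). *Dad*, which encodes an inhibitory Smad of the Dpp pathway, was called in neither comparison.

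Among 6 members that act in the cell cycle, the inhibitors of division stood beside genes of the dividing chromosome. *dap*, the gene of the p21/p27-type inhibitor of Cyclin E, was measured at 604, 623, 558 and 610.4 CPM at 8 h, 1087, 1013, 1100.3 and 1038 CPM at 10 h and 316, 199, 315 and 332 CPM at 14 h. The libraries of 10 h lay above all others. Neither comparison called it (0.18, SE 0.22, and 0.19, SE 0.22). *Spc105R*, which encodes a kinetochore protein, was present at 156, 184, 179 and 195 CPM at 0 h and at 345, 333, 322 and 344 CPM at 8 h, and had fallen to 61.5, 21.8, 63.2 and 37.3 CPM at 14 h (log2 fold change -2.83, SE 0.28, adjusted p = 4.37e-12, against 6 h). *Nnf1a*, another kinetochore gene, and *rux*, whose product inhibits Cyclin A, were called lower as well (-1.48, SE 0.20, adjusted p = 1.12e-08, and -1.02, SE 0.17, adjusted p = 9.48e-07). *rux* lay near the fold limit, and its call was lost in 6 of 12 alternatives, with -0.89 in DESeq2, -0.82 with library size alone, -0.97 without replicate 1 and -0.95 without replicate 3 among them. *fzr*, an activator of the anaphase-promoting complex, and *Cap-H2*, a condensin subunit gene, were not called.

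Members from other gene lists were few. Of 15 glia genes, *gcm*, *pnt* and *Tret1-1* were members. *gcm*, the switch gene of glial fate that also acts in blood cells, rose slowly to 111, 104, 113 and 108 CPM at 10 h and was not called (log2 fold change -0.13, SE 0.35, adjusted p = 0.793). *Tret1-1*, a trehalose transporter gene, went from 82.7, 82.1, 76.2 and 90.9 CPM at 8 h to 143, 159, 150.1 and 160.0 CPM at 12 h. Its libraries did not overlap, but the change was below the fold limit (log2 fold change 0.77, SE 0.28, adjusted p = 0.0224). *Sr-CI*, a scavenger receptor gene of blood cells, stood at 53.8, 55.3, 53.4 and 56.7 CPM at 10 h and at 11.1, 10.4, 14.6 and 11.0 CPM at 16 h. It was called lower at 14 than at 6 h only without replicate 1 (-1.06), and not with all libraries (-0.81, SE 0.32). *hid*, which starts apoptosis, was at 171, 172, 165 and 147 CPM at 10 h and 40.6, 66.1, 52.5 and 58.1 CPM at 16 h. *sens* was the member among 14 salivary gland genes, *bnl* among 16 matched genes of the trachea list, *Mef2* among 19 of muscle identity, *jeb* among 12 of the gut and *hid* among 9 of apoptosis. No matched gene of the lists for dorsal closure, the heart and the apical matrix was a member. Some listed genes could not be matched to a gene ID of the files, among them *hbs*, *btl* and *scb* of the fusion, trachea and dorsal closure lists, and 5 members have an ID without a name, so these counts may be too low. Of the 25 apical matrix and chitin genes matched, a list without the member *Chs2*, none had its highest mean at 8 to 12 h. At 14 against 6 h, 18 of them were called higher, where 27.5% of all genes tested were.

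In counts, the most abundant member was *Gyc32E*, with 1945, 1712, 1948 and 1680.3 CPM at 10 h and 37.1, 80.4, 3.06 and 4.80 CPM at 20 h. It was followed by *Obp99a*, an odorant-binding protein gene, with 1495, 1233, 1484 and 1643 CPM at 10 h, and *rib*, a BTB protein gene of trachea and salivary glands, with 1260.2, 1356, 1316 and 1430.1 CPM at 8 h. *ttk*, which encodes a BTB zinc finger repressor, reached 1249, 1251, 1242 and 1085 CPM at 10 h, and *Mcr*, whose product is part of septate junctions, 1044, 1120.0, 1009 and 1078 CPM at 8 h. Per kilobase of exon, the highest mean of *Obp99a* was 2399 RPKM, that of *Gyc32E* 474 RPKM, that of *rib* 287 RPKM, that of *Mcr* 169 RPKM and that of *ttk* 159.7 RPKM. *ttk* was called higher at 14 than at 6 h (log2 fold change 1.16, SE 0.19, adjusted p = 1.06e-06), with 893, 455, 972 and 822 CPM at 14 h, of which replicate 2 was far lower than the others. *rib* and *Mcr* were not called (-0.77, SE 0.32, and -0.71, SE 0.29).

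Most members had little or no maternal mRNA. At every time from 0 to 2 h, 107 of 150 were under 5% of their highest mean. At the other end, 17 were above 25% in at least 1 of these means, among them *Vrp1*, *Inos*, *Mcr*, *N*, *Spc105R* and *fzr*. In the 4 libraries of 0 h the median member stood at 2.57, 1.22, 2.04 and 0.432% of its highest mean, lowest in replicate 4, which also had the lowest late muscle sum (23.2 CPM, against 398 to 473 CPM in the others). The part of older embryos in these levels was not tested. With replicate 4 alone for 0 h, the rule returned 149 of the 150 members. The highest level outside the window fell at 18 h for 66 members, at 4 h for 26 and at 16 h for 25.

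An annotation was found for 145 of the 150 members in Ensembl release 115, of which 140 encode proteins and 5 are non-coding RNAs, so the list is not made of mRNAs alone. The others are known here by their IDs only (FBgn0005592, FBgn0000497, FBgn0003328, FBgn0029082 and FBgn0262735). The genes had a median of 2433 exonic bases, where all 8442 annotated genes with a highest mean of at least 10 CPM had 2212. Genes with a single exon block made up 20% of the members and 9.63% of all these genes, and non-coding RNAs 3.45% and 0.888%. Chromosome X carried 11.0% of the members and 16.5% of all, and 2R 24.1% and 19.8%. Within 20 kb of another member lay 31 members, in 11 runs, and outside the E(spl) complex these runs held 2 or 3 genes. *LManI* and *LManII*, genes of lysosomal mannosidases, were next to each other on 2L and both highest at 8 h. *Cyp9f3* and *Cyp9f2* on 3R were both highest at 10 h, and *CG8028* and *CG8034* on X both at 8 h. The spans of 61 members overlap another measured gene, and those of 52 a gene on the other strand. Neither the runs nor the overlaps were counted for all genes, so they are not read as traits of the members.

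The limit of the list falls within a run of close ratios. The last members were *jar*, the gene of myosin VI, with a ratio of 1.86, *CG10621* with 1.86 and *CG3829* with 1.85. Just outside were *Mink* with 1.85, *kug* with 1.85 and *Cln7* with 1.84.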

How the data were processed

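The authors made stranded libraries from polyadenylated RNA, demultiplexed the reads with bcl2fastq 1.8.4, aligned them with STAR 2.4.0h to the BDGP6 genome of Ensembl release 79 and counted reads per gene with HTSeq 0.6.1p1. The strand setting of the counting is not given in the sources used here. The deposited values are whole-number counts per gene ID. Rows that name no gene stayed out of all totals; ambiguous reads were 1.28 to 1.82% of the reads listed. Libraries held 13422473 to 22536043 counts on genes. No replicate pair agreed within sampling noise.

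Samples were grouped by the time in their labels. CPM and the list were computed in Python 3.11.15 with pandas 2.3.3. RPKM, the CPM per kilobase of merged exons, used Ensembl release 115. Differences were tested in R 4.3.3 with the quasi-likelihood test of edgeR 4.0.16 on the counts, in a fit with a mean per time point, after filterByExpr and TMM scaling, with Benjamini-Hochberg adjustment over 11065 genes. On simulated counts of these genes, 93.5% of 200 genes changed 4-fold were found for 12 against 8 h and 96% for 14 against 6 h. Times at 50% came from linear interpolation.

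The members, the comparisons and the 15 gene lists were chosen with earlier results of these data known, and the groups by role after the members were seen. Genes named by rule were the 10 largest ratios, the highest levels, the last 3 members, the largest changes in each comparison and members on the lists; other genes were chosen after their values were seen. Alternatives were DESeq2 1.42.0, its size factors, library size alone, no filter, only the time points compared, a replicate block, leaving out replicates, and other settings of the rule. Promoter and protein sequences were not analysed here.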

Additional observations from a re-analysis of the deposited data

Results flagged for a closer look

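The members' share of counts at each time and the level of each named member at its highest time point were searched for a replicate far from the other 3, by its gap to the nearest value as a share of the range (Dixon's criterion for 4 values). Of 56 groups looked at, 2 had such a replicate, and chance alone marks about 1 in 20. *ttk* was at 1085 CPM in replicate 4 of 10 h, the library with eggshell mRNA, where the nearest value was 1242 CPM and the gap was 0.944 of the range. *jar* was at 691 CPM in replicate 3 of 8 h, where the nearest was 733 CPM and the gap was 0.836 of the range.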

How the results depend on the processing

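The counts of called members over all 150 stayed within 1.5 times those given above under every alternative tried, while groups by role with 1 call in a direction could lose it, and no called member turned direction. Leaving out a replicate number gave 14 to 18 members higher and 22 to 29 lower at 12 against 8 h. At 14 against 6 h it gave 13 to 16 higher and 59 to 63 lower. DESeq2 gave 21 and 25, and 17 and 54. In each comparison 1 of 4 samples correlated best with its own number, too few samples to settle whether replicates with the same number pair. The mean correlation was 0.128 and -0.0223 for the same number, beside -0.0401 and 0.00687 for other numbers. A replicate block gave 17 higher and 26 lower, and 17 higher and 63 lower. The alternatives added after seeing the data were library size alone, and leaving out replicate 1 of 12 h (15 and 25) or replicate 2 (17 and 58) or 4 (15 and 60) of 14 h. Named members kept their side of the limits in 456 of 462 fits at 12 against 8 h and in 493 of 504 at 14 against 6 h. The median of the muscle group at 14 against 6 h was -0.18. It changed sign with library size alone (0.05) and without replicate 2 (0.0016), and the other groups kept theirs. Under 15 other settings of the rule, 87 of the 150 members were always returned. TMM scaling kept 135, leaving out 18 h 133, and leaving out 3 and 4 h 108. With TMM scaling the members held 2.89% of counts at 10 h. From 6 h on, times are resolved only to the sampling steps of 2 h, and 3 counts, a limit from counting alone, correspond to at most 0.224 CPM.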

Other observations

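Some members outside the groups and lists, picked after their values were seen, are known for other roles. *Toll-6*, a Toll family receptor gene with striped expression in the extending germ band, stood at 512, 479.9, 479 and 472 CPM at 6 h and 499, 531, 508 and 547 CPM at 8 h and 142, 62.2, 139.7 and 38.9 CPM at 14 h, and edgeR called it lower at 14 than at 6 h (log2 fold change -2.55, SE 0.46, adjusted p = 5.13e-06). *Piezo*, the gene of a mechanically gated ion channel, was at 627, 665, 657 and 646 CPM at 8 h and 253, 90.1, 251 and 47.6 CPM at 14 h and was called lower as well (log2 fold change -1.91, SE 0.33, adjusted p = 1.70e-06). *Tet*, which encodes an enzyme of the methylcytosine dioxygenase family, was at 928, 1054, 1026 and 984 CPM at 8 h and 496, 176, 492 and 252 CPM at 14 h (log2 fold change -1.19, SE 0.37, adjusted p = 0.00445), a call lost with library size alone (-0.97). These had their highest mean at 8 h. *Chs2*, the gene of a chitin synthase, was later. It rose from 23.8, 22.0, 24.1 and 27.5 CPM at 8 h to 54.3, 55.7, 59.4 and 48.6 CPM at 12 h (log2 fold change 1.06, SE 0.30, adjusted p = 0.00321), a call lost without replicate 1 of 12 h (0.97). *emc*, which encodes a helix-loop-helix protein that inhibits proneural factors, was called in neither comparison (0.27, SE 0.14, and -0.11, SE 0.14), and stood at 747, 712, 719 and 674 CPM at 10 h.

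Of the members without a name, FBgn0005592 was called lower in both comparisons (-1.18, SE 0.34, adjusted p = 0.00379, and -1.63, SE 0.34, adjusted p = 5.15e-05), with 139, 151, 144 and 169 CPM at 8 h and 46.1, 23.1, 47.7 and 12.8 CPM at 14 h. FBgn0003328 went the other way and was called higher at 12 than at 8 h (log2 fold change 1.47, SE 0.36, adjusted p = 0.000923).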
